A study of Mus musculus with 42 samples.

Results

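Macrophages of young mice were compared at 2 times of day that lie 12 h apart, zeitgeber time (ZT) 16 and ZT4. Zeitgeber time counts hours from lights-on in the animal room. The comparison takes in 6 of 42 libraries, 3 from young mice at ZT16 and 3 from young mice at ZT4, chosen by their labelled age and time and by no measured value. Both groups came from C57BL/6 mice aged 2 to 3 months, with no treatment, transgene or mutation named in the labels. The other 15 young libraries, from ZT0, ZT8, ZT12, ZT20 and ZT24, entered the same statistical fit, whose estimate of the spread came from all 21 young libraries. The same 2 times in C57BL/6 mice aged 18 to 20 months, again 3 libraries each, were used for 1 comparison between ages. Cells are labelled as macrophages with no organ or isolation method given, and nothing says whether the libraries of a group are separate or pooled mice. The p-values therefore measure the spread between these libraries, which may be technical.

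In mice the circadian clock runs in nearly every cell, macrophages included. The activators CLOCK and BMAL1 (gene Arntl) switch on the Per and Cry genes, whose proteins accumulate and shut the activators off, while the nuclear receptors REV-ERB alpha and beta (Nr1d1, Nr1d2) repress Arntl in a coupled loop. The clock, together with daily rhythms of glucocorticoid hormone, body temperature and feeding, sets daily rhythms of metabolic and immune genes in macrophages.

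Values are a normalized signal per gene, that is, 3' end reads divided by a size factor for the library. Fold changes are differences in log2(signal + 1), ZT16 minus ZT4, so that a positive value means a higher level at ZT16. They understate the change of genes of low level. A gene was called at a limma adjusted p under 0.05, with the Benjamini-Hochberg adjustment over all 12113 genes whose mean signal over the 21 young libraries reached 10.

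Stretches of sequence before the start of some of the genes that carry the results are shown here, because short motifs known to be bound by clock, heat shock, unfolded protein and interferon factors lie in them. Each run is the 250 bases before the RefSeq start of the gene, 5′ to 3′ on the strand of the gene, from build GRCm38.p6, with motif matches in capitals. Motifs were searched on both strands in windows from 250 bases before to 50 bases after the start. The Tef, Per1 and Gbp5 runs lie inside the GENCODE models of these genes, which begin further upstream than the RefSeq start used. In the Tef (chr15:81802423-81802672, plus strand), Cry1 (chr10:85185055-85185304, minus strand) and Per1 (chr11:69098699-69098948, plus strand) runs the capitals mark the E-box CACGTG, the site of CLOCK and BMAL1, and in Per3 (chr4:151044666-151044915, minus strand) 2 copies of the D-box TTANGTAA, the site of DBP and TEF. In Hspa5 (chr2:34771840-34772089, plus strand) they mark the endoplasmic reticulum stress element (CCAAT and CCACG with 9 free bases between). In Gbp5 (chr3:142496684-142496933, plus strand) and Gbp2b (chr3:142594597-142594846, plus strand) they mark the interferon motifs ISRE (GAAA and GAAA with 2 free bases between) and GAS (TTC and GAA with 3 free bases between), in the orientation in which each occurs.
Tef: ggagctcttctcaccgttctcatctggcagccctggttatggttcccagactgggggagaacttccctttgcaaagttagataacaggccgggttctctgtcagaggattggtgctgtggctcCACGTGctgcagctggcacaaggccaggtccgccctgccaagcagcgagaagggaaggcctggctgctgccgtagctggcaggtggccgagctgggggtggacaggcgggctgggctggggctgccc
Cry1: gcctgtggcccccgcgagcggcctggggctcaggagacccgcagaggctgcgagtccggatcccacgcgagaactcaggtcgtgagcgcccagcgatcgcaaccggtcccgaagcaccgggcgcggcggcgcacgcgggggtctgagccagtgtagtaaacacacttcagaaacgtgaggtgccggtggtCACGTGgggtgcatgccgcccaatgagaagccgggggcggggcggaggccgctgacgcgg
Per1: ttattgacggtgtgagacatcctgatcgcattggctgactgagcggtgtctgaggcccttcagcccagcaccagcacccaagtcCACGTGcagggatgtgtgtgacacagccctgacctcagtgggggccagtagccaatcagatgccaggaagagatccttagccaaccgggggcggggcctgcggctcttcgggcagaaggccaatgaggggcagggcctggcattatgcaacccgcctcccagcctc
Per3: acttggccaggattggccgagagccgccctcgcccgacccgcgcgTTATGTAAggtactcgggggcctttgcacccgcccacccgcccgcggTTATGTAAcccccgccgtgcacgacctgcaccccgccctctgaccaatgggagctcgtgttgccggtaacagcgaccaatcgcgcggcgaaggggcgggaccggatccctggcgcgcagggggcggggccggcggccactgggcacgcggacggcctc
Hspa5: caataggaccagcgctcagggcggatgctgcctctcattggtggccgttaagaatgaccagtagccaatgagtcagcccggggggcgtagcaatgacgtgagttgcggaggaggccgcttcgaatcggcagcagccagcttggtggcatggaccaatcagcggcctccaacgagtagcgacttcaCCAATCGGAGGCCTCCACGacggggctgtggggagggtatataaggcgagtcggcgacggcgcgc
Gbp5: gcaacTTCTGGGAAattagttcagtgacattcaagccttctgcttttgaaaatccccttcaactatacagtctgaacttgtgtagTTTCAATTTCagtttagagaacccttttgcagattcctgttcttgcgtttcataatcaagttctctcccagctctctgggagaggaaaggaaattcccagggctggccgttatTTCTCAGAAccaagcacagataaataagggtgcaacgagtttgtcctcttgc
Gbp2b: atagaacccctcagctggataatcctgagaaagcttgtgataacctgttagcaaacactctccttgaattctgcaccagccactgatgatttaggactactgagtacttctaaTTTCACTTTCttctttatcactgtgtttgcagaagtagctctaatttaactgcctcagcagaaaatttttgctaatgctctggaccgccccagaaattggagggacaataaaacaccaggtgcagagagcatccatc
The heat shock gene Chordc1 carries the run GAACGTTCGGGAAAATTCCTGAA across its start (chr9:18292263-18292285, plus strand), in which 3 matches of the heat shock element (GAA, TTC and GAA with 2 free bases between each) overlap.

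A motif match is a description and not a shown binding site. The E-box was present in 10.5% of the 9011 windows of tested genes, in 11.3% of the 133 windows of genes higher at ZT16 and in 7.14% of the 98 windows of genes lower at ZT16, so that the share in higher genes was near that of all tested genes. The interferon motif ISRE was present in 3.20% of the windows of tested genes, in 2.26% of those of higher genes and in 13.3% of those of lower genes. For GAS these shares were 6.74%, 3.76% and 16.3%. The lower genes include 9 interferon-inducible GTPase genes of the GBP and IRG families, described below. Summed over these families, the ZT4 signal was high in replicates 2 and 3 and not in replicate 1. The part of these genes in the ISRE and GAS shares was not tested. Over all 32851 RefSeq windows the E-box was in 7.15%, ISRE in 3.44% and GAS in 8.30%. The D-box was in 2.32% of all windows, the heat shock element in 0.603% and the endoplasmic reticulum stress element in 0.119%. Also searched were the glucocorticoid response element (GNACA and TGTNC with 3 free bases between, 0.475% of all windows), the REV-ERB and ROR site (AANT followed by AGGTCA, 0.219%) and the cyclic AMP element (TGAC followed by GTCA, 1.79%). No test was made of these shares.

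The 6 libraries held between 8236377 and 13574542 reads in genes, with 14728 to 16941 genes above 0 and 1.39% to 1.82% of reads from the mitochondrial genome. All 10 macrophage markers were tested and 0 were called by limma, edgeR or DESeq2 (3 had an unadjusted p under 0.05), among them Adgre1 (F4/80) at 6316, 6577 and 5705 at ZT4 and 7014, 7089 and 5793 at ZT16. Gata6, the transcription factor of resident peritoneal macrophages, lay at 1445, 1354 and 1117 at ZT4 and 1260, 1208 and 1050 at ZT16, in a cell sample whose organ the labels do not name. Of 12 tested markers of resident peritoneal macrophages, Gata6 among them, 2 were called lower and 0 higher by limma, edgeR and DESeq2. They were Timd4 (-0.67) and Alox15 (-0.55), where limma called 1.09% of all genes lower. The call of Alox15 was lost without ZT4 replicates 2 or 3 or ZT16 replicates 1 or 3 (limma adjusted p = 0.0538 to 0.252). Genes of B cells were present in both groups, with a summed signal of 13370 to 19203 at ZT4 and 13103 to 15023 at ZT16, and 0 of 10 were called by limma (2 of 10 were lower at an unadjusted p under 0.05, and 0 were called by edgeR or DESeq2). Mesothelial and fibroblast markers were near 0 (3.03 to 8.71 against 7.0 to 33.7 summed), with Msln, Upk3b, Upk1b, Col1a1 and Pdgfra at 0 in all 6 libraries. T cell markers summed to 829.7 to 974 at ZT4 and 1045 to 1345 at ZT16. Without the adhesion receptor gene Cd2 the sum was 188 to 348 at ZT4 and 154 to 217 at ZT16. Of 9 tested T cell markers 7 were negative, with a median log2 fold of -0.44. Cd2 was the 1 called (0.76 higher), where 1.33% of all genes were called higher. Its call was lost without ZT4 replicate 2 or ZT16 replicates 2 or 3 (limma adjusted p = 0.0751 to 0.0906). Mast cell and basophil markers summed to 1407 to 2102 and 817 to 1868. Neutrophil markers summed to 321 to 429.7 and 412 to 655, and dendritic cell markers to 438 to 626 and 622 to 839. In bulk RNA, fewer cells of a type and less RNA per cell cannot be told apart.

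The ZT4 libraries stood apart from each other in several ways. ZT4 replicate 3 had the most reads (13574542) and the most genes above 0 (16941) of all 21 young libraries. Its shares of mitochondrial reads (1.39%) and of reads in the top 10 genes (12.2%) were the lowest. ZT4 replicate 1 held a signal of 2367 for the haemoglobin genes, against 5.04 and 9.77 in replicates 2 and 3. The ZT16 libraries held 7.0 to 58.6. At other times, ZT8 replicate 3 held 5390 and ZT0 replicates 2 and 3 held 2630 and 556. Interferon-inducible GTPase genes of the GBP and IRG families, which act against intracellular microbes, summed to 4203, 14536 and 27120 in ZT4 replicates 1, 2 and 3, against 3295 to 6475 in the 18 young libraries of all other times. ZT4 replicates 2 and 3 were thus high for these genes and replicate 1 was not. A second fit took out ZT4 replicates 2 and 3, and in it the single ZT4 library is assumed to vary like the other groups. Its effect on the named genes is given after the results for interferon.

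Of the 12113 genes tested, 293 (2.42%) were called by limma, 161 higher (1.33%) and 132 lower (1.09%) at ZT16. The median change of the called genes was 1.74-fold, and 96 changed at least 2-fold, 39 upward and 57 downward. Without adjustment, 1645 genes had a p under 0.05. The 3 values of one time all lay on one side of the 3 values of the other in 269 of the 293 called genes, against 16.3% of all genes tested. Across all genes the median change was -0.02 on the log2 scale. Leaving out 1 library at a time gave between 141 calls (without ZT16 replicate 1) and 401 calls (without ZT4 replicate 1), against 188 without ZT4 replicate 2, and 97 of the 293 genes were called in all 6 of these fits. Without ZT4 replicates 2 and 3 there were 71 calls, 48 higher and 23 lower, 54 of them among the 293. Scaling by total reads in place of the deposited factors gave 299 calls with 133 higher and 166 lower, so that the share of higher genes moved from 54.95% to 44.48%.

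**Figure D1:**
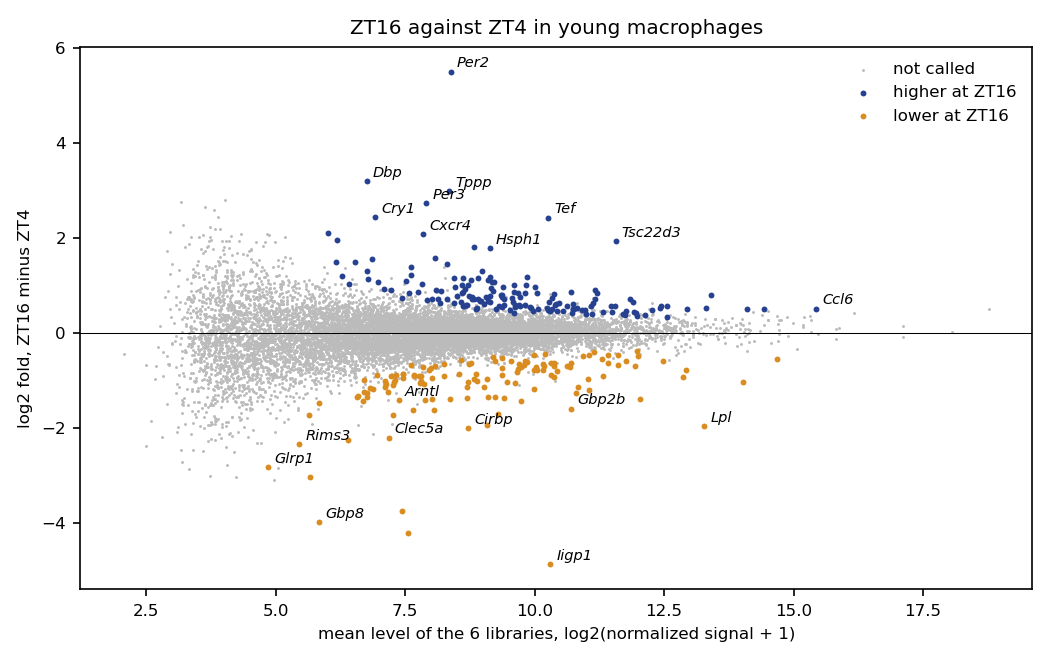
Each point is 1 of 12113 genes, with its mean level over the 6 young libraries on the x axis, log2(normalized signal + 1), and its log2 fold of ZT16 over ZT4 on the y axis. Blue points are the 161 genes called higher and orange points the 132 called lower, with Per2 at 5.50 and Iigp1 at -4.88 at the extremes.

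Among the called genes of the clock loop, the repressors were higher and the activator gene Arntl was lower at ZT16. Of 12 genes of the loop, 11 passed the filter on level, 6 were called higher and 1 lower (2.42% of all genes tested were called), with a median log2 fold of 1.15 against -0.02 over all genes. Per2 had the largest rise of all genes tested. This repressor gene (ENSMUSG00000055866, chr1:91415982-91459324, minus strand, GRCm38) had signals of 14.2, 14.1 and 11.9 at ZT4 and 669.5, 595 and 689 at ZT16. The groups lay far apart, with means of 651 ± 49.4 (SD, n = 3) and 13.4 ± 1.31 (SD, n = 3). A log2 fold of 5.50 ± 0.32 (SE) was found, with adjusted p = 3.41e-13 by limma. Over the other times of day its mean was 67.2 at ZT8, 439 at ZT12, 374 at ZT20, 270.4 at ZT24 and 294 at ZT0, so ZT4 and ZT16 were the lowest and highest of the 7 times.

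The second period gene by size of change was Per3 (ENSMUSG00000028957, chr4:151003652-151044665, minus strand), whose window holds the 2 D-boxes shown above, at 55.5, 64.6 and 65.6 at ZT4 and 436, 367 and 446 at ZT16. This was a rise of 2.73 ± 0.23 (SE) in log2 units with adjusted p = 2.31e-09 (limma). Cry1 (ENSMUSG00000020038, chr10:85131700-85185064, minus strand), a cryptochrome that binds and blocks CLOCK and BMAL1, was at 39.2, 30.3 and 39.8 at ZT4 and 261, 188 and 165 at ZT16. Cry1 was higher by 2.44 ± 0.25 (SE) in log2, at adjusted p = 8.48e-08 by limma. Neither gene had overlapping groups. Per1 (ENSMUSG00000020893, chr11:69095217-69109960, plus strand), the period gene that glucocorticoids also induce, was at 154, 133 and 105 at ZT4 and 578, 356 and 283 at ZT16, and in this gene the spread within ZT16 was wider than for the other period genes. On the log2 scale Per1 rose by 1.58 ± 0.26 (SE), with adjusted p = 0.000423 (limma). With ZT4 replicate 1 as the single ZT4 library the Per1 call was lost, at an adjusted p of 0.0774 by limma.

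Nr1d2, the gene of REV-ERB beta, was at 259, 218 and 438 at ZT4 and 636, 791 and 539.9 at ZT16, higher in every ZT16 library than in any at ZT4. Limma gave a log2 fold of 1.15 ± 0.20 (SE) and adjusted p = 0.00096. Cry2 was at 73.0, 74.6 and 57.9 at ZT4 and 163, 141 and 146 at ZT16. In log2 units the rise was 1.13 ± 0.26 (SE) (adjusted p = 0.0124, limma), a call that was lost without ZT4 replicate 3 or ZT16 replicate 1 (adjusted p = 0.0621 to 0.0747 by limma). Nr1d1, the gene of REV-ERB alpha, was at 18.5, 17.1 and 20.2 at ZT4 and 32.5, 41.5 and 65.6 at ZT16: its values were higher at ZT16 in all 3 libraries, yet its log2 difference of 1.22 ± 0.73 (SE) was not called (adjusted p = 0.496). On the side of the activators, Arntl (ENSMUSG00000055116, chr7:113207465-113314126, plus strand) was at 255, 263 and 205 at ZT4 and 72.1, 93.8 and 105 at ZT16. It fell by 1.42 ± 0.22 (SE) on the log2 scale (limma, adjusted p = 0.000186). Every ZT16 value of Arntl lay below every ZT4 value, whereas its partner Clock overlapped between the times, with a difference of -0.17 ± 0.16 (SE). Rora and Ciart did not pass the test either, at -0.15 and 0.56, and Npas2 was under the filter on level.

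Output factors of the clock carry its rhythm to other genes. Tef and Dbp encode PAR bZIP activators that bind the D-box, and Nfil3 encodes a repressor at the same sites. Tef (ENSMUSG00000022389, chr15:81802421-81826863, plus strand) was at 418, 343 and 384 at ZT4 and 2266, 2072 and 1849 at ZT16. A log2 fold of 2.43 ± 0.13 (SE) was found, with adjusted p = 2.43e-14 by limma, the lowest adjusted p of all genes tested. Dbp (ENSMUSG00000059824, chr7:45705088-45710203, plus strand) was at 25.0, 26.2 and 11.9 at ZT4 and 179, 243 and 158 at ZT16, with no overlap between the groups. This was a rise of 3.19 ± 0.36 (SE) in log2 units with adjusted p = 7.90e-07 (limma). In Dbp, ZT16 was not the top of the day, since its mean was 193 ± 44.2 (SD, n = 3) at ZT16 and 513.5 ± 88.1 (SD, n = 3) at ZT12. Nfil3 was lower in every ZT16 library than in any ZT4 library, but its log2 difference of -0.65 ± 0.24 (SE) was not called (adjusted p = 0.169). Bhlhe40 and Bhlhe41, repressors of E-box genes, differed by 0.19 and 0.12 and were not called, and Hlf was under the filter on level.

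**Figure D2:**
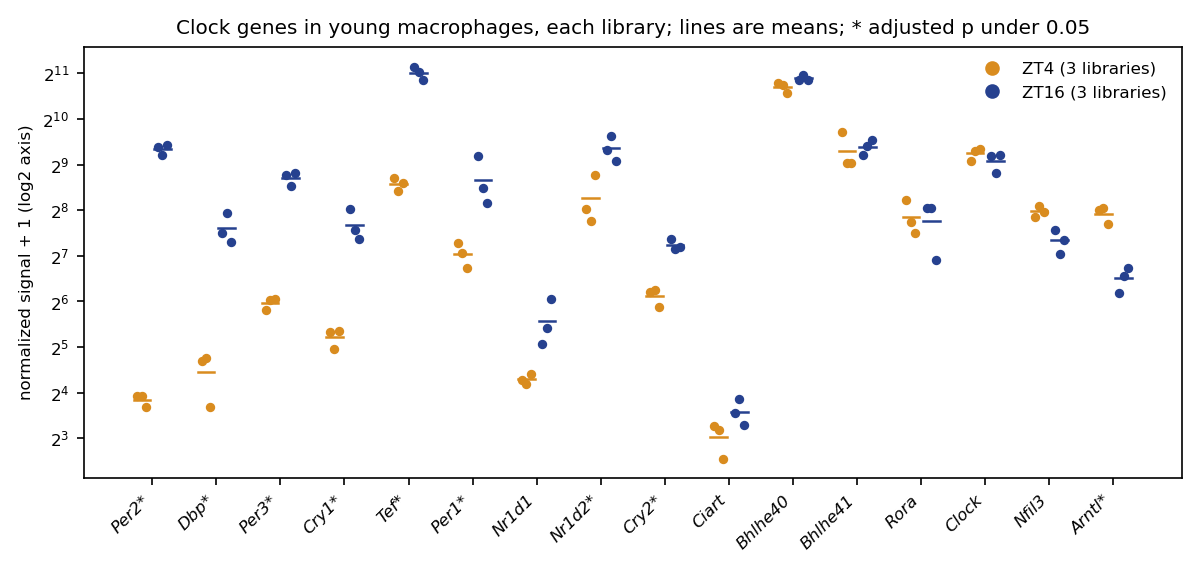
Each point is 1 library, with the normalized signal + 1 on a log2 axis, for the 16 tested clock loop and output genes at ZT4 (orange) and ZT16 (blue), with lines at the means and stars at called genes. Per2 lies between 11.9 and 14.2 in normalized signal at ZT4 and between 595 and 689 at ZT16, and Arntl is the starred gene with the lower ZT16 values.

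Genes induced by glucocorticoids, the adrenal hormones that peak at the start of the active phase, were higher at ZT16 where they were called. Of 17 listed genes 15 were tested, and 5 were called higher, against 1.33% of all genes. None was called lower (0 lower at an unadjusted p under 0.05, and 0 by edgeR or DESeq2). The median log2 fold of the list was 0.47, against -0.02 over all genes. Per1 is a member of both this list and the clock loop. Tsc22d3 (ENSMUSG00000031431, chrX:140539528-140600659, minus strand), which encodes the glucocorticoid-induced leucine zipper protein GILZ, was at 1370, 1264 and 1077 at ZT4 and 5810, 4969 and 3674 at ZT16. Every ZT16 value lay well above every ZT4 value. Tsc22d3 was higher by 1.94 ± 0.15 (SE) in log2, at adjusted p = 3.62e-10 by limma. Fkbp5 (ENSMUSG00000024222, chr17:28399094-28517527, minus strand), a co-chaperone that dampens the glucocorticoid receptor, was at 247, 124 and 245 at ZT4 and 944, 602 and 566 at ZT16. On the log2 scale Fkbp5 rose by 1.80 ± 0.36 (SE), with adjusted p = 0.00382 (limma). As with Dbp, the highest mean of Fkbp5 was at ZT12, 1292 ± 102 (SD, n = 3).

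Klf9, a transcription factor gene induced by the hormone, was at 1924, 1612 and 1253 at ZT4 and 3717, 3060 and 2283 at ZT16. Limma gave a log2 fold of 0.91 ± 0.17 (SE) and adjusted p = 0.00127. Ddit4, an inhibitor of the mTORC1 kinase that is also induced by other stresses, was at 262, 136 and 126 at ZT4 and 523, 375 and 483 at ZT16. In log2 units the rise was 1.46 ± 0.33 (SE) (adjusted p = 0.0111, limma), lost without ZT4 replicate 2, ZT4 replicate 3 or ZT16 replicate 1 (adjusted p = 0.0591 to 0.0712). Dusp1 at a difference of 0.82, Mt2 at 0.59, Zbtb16 at 0.33 and Zfp36 at -0.18 were among the 10 members that were not called. With ZT4 replicate 1 as the single ZT4 library, 1 of the 15 was called, Tsc22d3, while the median log2 fold was 0.47.

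Chaperone genes of the cytosol were higher at ZT16 where they were called. Their products fold new or damaged proteins and many of the genes are induced by heat and by unfolded protein through the factor HSF1. Of 23 listed genes 22 were tested, and 8 were called higher, against 1.33% of all genes. None was called lower (0 lower at an unadjusted p under 0.05, and 0 by edgeR or DESeq2). Non-overlapping groups with the higher values at ZT16 were found in 15 of the 22, against 8.37% of all genes. The median log2 fold was 0.50. Hsph1 (ENSMUSG00000029657, chr5:149614287-149636376, minus strand), a nucleotide exchange factor for HSP70, was at 197, 319 and 243 at ZT4 and 1054, 781 and 775 at ZT16. It rose by 1.79 ± 0.23 (SE) on the log2 scale (limma, adjusted p = 1.10e-05). Groups did not overlap, and the means at ZT24 and ZT0 were higher still, at 1217 ± 326 (SD, n = 3) and 992 ± 393 (SD, n = 3).

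Hspa1b, an inducible HSP70 gene, was at 18.5, 19.2 and 27.9 at ZT4 and 167, 59.5 and 86.6 at ZT16, with widely spread ZT16 values. A log2 fold of 2.10 ± 0.50 (SE) was found, with adjusted p = 0.0165 by limma, lost without ZT4 replicate 2 (adjusted p = 0.0631) or ZT16 replicate 1 (adjusted p = 0.161). Its near-identical neighbour Hspa1a, with which reads may be split, was at 53.4, 110.0 and 89.3 at ZT4 and 386, 114 and 138 at ZT16 and was not called (adjusted p = 0.0706). Some co-chaperones of HSP70 and HSP90 were among the called genes, while St13 (0.22), Ptges3 (0.26), Bag3 (0.33), Fkbp4 (0.43), Dnajb4 (0.47) and Cacybp (0.47) were not. Dnajb1 was at 563, 575 and 526 at ZT4 and 1069, 1040 and 911 at ZT16. This was a rise of 0.86 ± 0.15 (SE) in log2 units with adjusted p = 0.000632 (limma). Chordc1, the HSP90 co-chaperone whose start carries the overlapping heat shock elements, was at 549, 607 and 577 at ZT4 and 1185, 811 and 1161 at ZT16. Chordc1 was higher by 0.84 ± 0.17 (SE) in log2, at adjusted p = 0.00382 by limma. The other called members were Dnaja1 (0.72), Hsp90aa1 (0.75), Ahsa1 (0.73) and Stip1 (0.58). Hsp90aa1 encodes HSP90, Ahsa1 the activator of its ATPase and Stip1 its link to HSP70. Each of these lost its call without some single library, at adjusted p from 0.0596 to 0.1695 for Dnaja1 (ZT4 replicate 1, ZT16 replicates 1 and 2), 0.0651 to 0.176 for Hsp90aa1 (ZT4 and ZT16 replicates 1 and 2), 0.0659 to 0.155 for Ahsa1 (all but ZT4 replicate 1) and 0.0595 to 0.208 for Stip1 (ZT4 replicate 2, ZT16 replicates 1 and 3). Hsf1 itself differed by -0.35 and was not called. With ZT4 replicate 1 as the single ZT4 library, Hsph1 differed by 2.12, Hspa1b by 2.30, Dnajb1 by 0.83 and Chordc1 by 0.92 in log2. In that fit Dnaja1 differed by 0.95, Hsp90aa1 by 0.83, Ahsa1 by 0.40 and Stip1 by 0.44.

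In the endoplasmic reticulum, where secreted proteins fold, the differences were smaller. Of 24 genes listed 22 were tested, 3 were called higher and 0 lower (0 lower at an unadjusted p under 0.05, and 0 by edgeR or DESeq2), with a median of 0.20. Over all genes tested, 1.33% were called higher. Non-overlapping groups with the higher values at ZT16 were found in 12 of the 22, against 8.37% of all genes. Herpud1, which helps to clear misfolded proteins from the endoplasmic reticulum, was at 1314, 1429 and 1286 at ZT4 and 2035, 2140 and 2000 at ZT16. On the log2 scale Herpud1 rose by 0.62 ± 0.12 (SE), with adjusted p = 0.00193 (limma). Hspa5, which encodes the main chaperone BiP and carries the stress element shown above, was at 17019, 15948 and 21894 at ZT4 and 27795, 24237 and 24662 at ZT16. Limma gave a log2 fold of 0.49 ± 0.13 (SE) and adjusted p = 0.0273, lost without ZT4 replicates 1 or 2 or ZT16 replicates 1 or 3 (adjusted p = 0.0558 to 0.175). Manf (0.52) lost its call without any library but ZT4 replicate 1 (adjusted p = 0.0559 to 0.163). With ZT4 replicate 1 alone at ZT4, 0 of the 22 were called by limma, with a median log2 fold of 0.22 and an adjusted p of 0.0567 for Herpud1. The CCT chaperonin, which folds actin and tubulin, had 8 subunits tested and 0 called, with differences from -0.06 to 0.25 and 0 at an unadjusted p under 0.05, and edgeR and DESeq2 called 0.

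Cirbp ran opposite to the heat shock genes. This RNA-binding protein (ENSMUSG00000045193, chr10:80165985-80172786, plus strand) is induced by mild cold, and its signals were 842, 549 and 626 at ZT4 and 172, 182 and 143 at ZT16. In log2 units the change was -2.00 ± 0.27 (SE) (adjusted p = 2.60e-05, limma). All ZT16 values lay well below all ZT4 values. Rbm3, the other cold-induced RNA-binding protein, was at 67.5, 91.8 and 83.8 at ZT4 and 117, 81.2 and 127 at ZT16, with overlapping groups and no call (adjusted p = 0.608). Other genes of RNA processing were looked at after their values had been seen. Srsf5, a splicing factor, was at 1280, 1254 and 1379 at ZT4 and 826, 758 and 790.2 at ZT16, with close values within each time. Srsf5 fell by 0.72 ± 0.13 (SE) on the log2 scale with adjusted p = 0.00108, and Hnrnpdl, an RNA-binding protein, fell by 0.64 ± 0.10 (SE) with adjusted p = 0.000287, both by limma. Of 10 such genes picked in this way, 2 were lower and 0 higher at ZT16. Srsf2, Srsf3, Srsf7, Hnrnph1, Tia1, Rbm39, Clk1 and Clk4 were not called, with differences from -0.30 to 0.01.

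**Figure D3:**
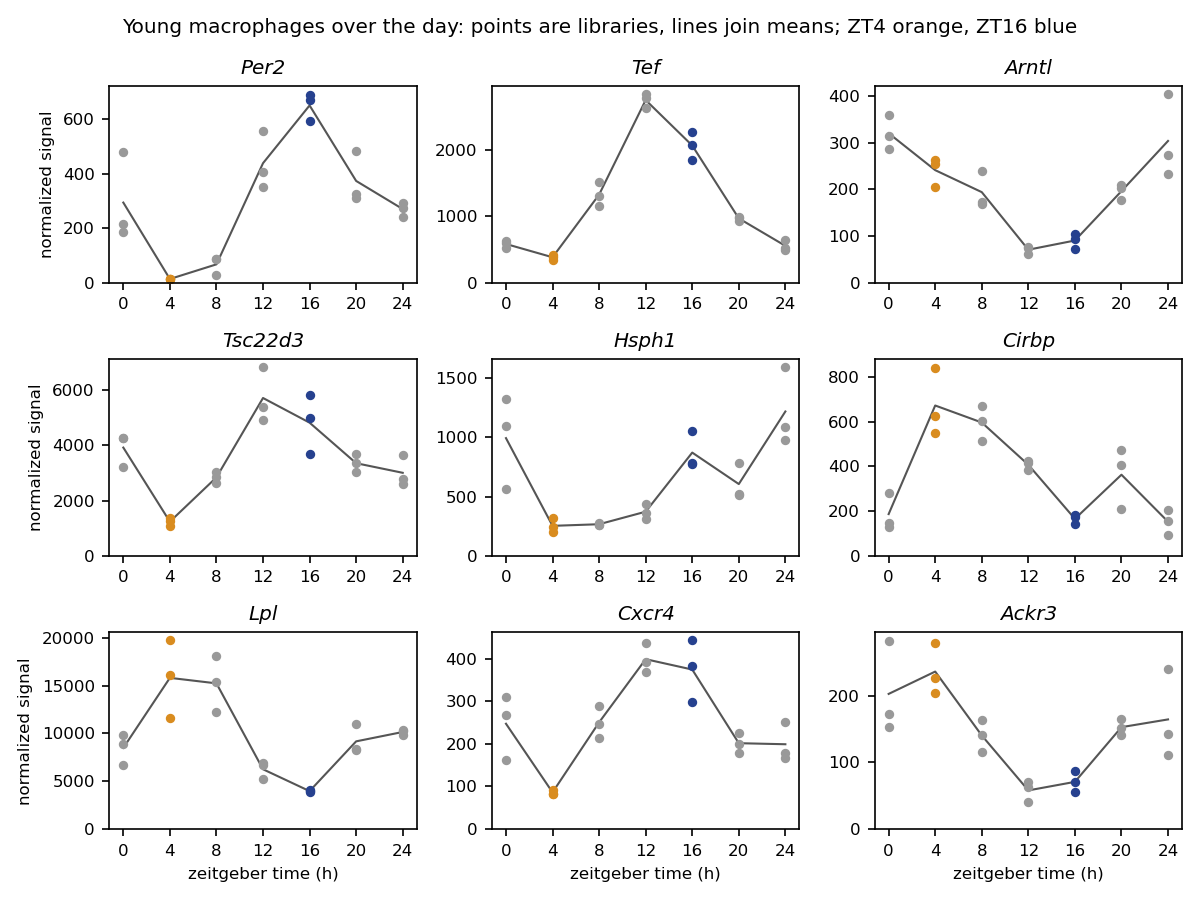
Normalized signal (y axes, starting at 0) over zeitgeber time in h (x axes) for 9 genes, with each point 1 young library and the line joining the means of 3. ZT4 points are orange and ZT16 points blue. Per2, Tef, Tsc22d3, Hsph1 and Cxcr4 have their lowest mean at ZT4, and Cirbp, Lpl and Ackr3 their highest.

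Genes of lipid handling changed in both directions. Lpl (ENSMUSG00000015568, chr8:68880491-68907448, plus strand) encodes lipoprotein lipase, which frees fatty acids from lipoproteins at the cell surface, and was at 19769, 11595 and 16085 at ZT4 and 3839, 4048 and 4024 at ZT16. The 3 ZT16 libraries were nearly equal, and each was far below every ZT4 library. It fell by 1.96 ± 0.16 (SE) on the log2 scale (limma, adjusted p = 1.11e-09). Plin2, a coat protein of lipid droplets, was at 3197, 3080 and 3815 at ZT4 and 1923, 1662 and 1768 at ZT16. With limma, Plin2 fell by 0.91 ± 0.17 (SE) on the log2 scale at adjusted p = 0.00141. Fabp4, a fatty acid carrier, was higher by 0.56, a call lost without ZT4 replicates 1 or 2 or ZT16 replicates 1 or 2 (adjusted p = 0.071 to 0.228). Of 15 tested genes of lipid uptake and storage these 3 were called, 1 higher and 2 lower, while the scavenger receptor Cd36 differed by -0.26 and was not. The cholesterol exporter Abcg1 was at 377, 493 and 489 at ZT4 and 894, 984 and 783 at ZT16. This was a rise of 0.97 ± 0.17 (SE) in log2 units with adjusted p = 0.000816 (limma), the 1 called gene of 11 targets of the sterol receptor LXR. Scd2, a fatty acid desaturase, was at 336, 380.3 and 313 at ZT4 and 706, 684 and 946 at ZT16. Scd2 was higher by 1.17 ± 0.20 (SE) in log2, at adjusted p = 0.000776 by limma. It was the 1 called gene of 23 of sterol and fatty acid synthesis. For each of these lists, the share called among all genes tested was 2.42%.

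Both known receptors of the chemokine CXCL12 changed, in opposite directions. Cxcr4 (ENSMUSG00000045382, chr1:128588199-128592293, minus strand), the signalling receptor, was at 82.8, 92.8 and 83.1 at ZT4 and 444, 382 and 298 at ZT16. On the log2 scale Cxcr4 rose by 2.09 ± 0.21 (SE), with adjusted p = 1.16e-07 (limma). Ackr3 (ENSMUSG00000044337, chr1:90203980-90216751, plus strand), the atypical receptor that takes the ligand up, was at 279, 205 and 226 at ZT4 and 55.3, 86.6 and 70.9 at ZT16. Limma gave a log2 fold of -1.74 ± 0.28 (SE) and adjusted p = 0.000423. Neither gene had overlapping groups. Ccl6, a chemokine of very high level in these cells, was at 37392, 36322 and 35606 at ZT4 and 50537, 50041 and 55478 at ZT16. In log2 units the rise was 0.51 ± 0.11 (SE) (adjusted p = 0.00885, limma), lost without ZT16 replicate 3 (adjusted p = 0.0528). Cxcl16 fell by 0.89 ± 0.22 (SE) on the log2 scale, a call lost without ZT4 replicate 2 or ZT16 replicates 1 or 2 (adjusted p = 0.0638 to 0.164). The other 14 of 16 tested chemokines were not called, where 2.42% of all genes were called. Csf1, the growth factor on which macrophages depend, fell by 1.25 ± 0.28 (SE), lost without ZT4 replicate 3 or ZT16 replicate 2 (adjusted p = 0.0596 to 0.0679). Among 11 tested inflammatory cytokines it was the 1 called, and Tnf, Il1b and Il6 differed by 0.66, 0.84 and -0.48.

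Surface receptors of uptake and recognition were called in both directions. Lower at ZT16 were 2 of 16 tested scavenger and lectin receptors and 2 of 16 tested genes for the uptake of dying cells, against 1.09% of all genes, and higher was 1 of 10 Fc gamma receptor genes, against 1.33%. Clec5a (ENSMUSG00000029915, chr6:40574894-40585821, minus strand), a lectin receptor of myeloid cells, was at 203, 283 and 208 at ZT4 and 39.7, 104 and 28 at ZT16. It fell by 2.20 ± 0.38 (SE) on the log2 scale (limma, adjusted p = 0.000632). Clec7a, the fungal glucan receptor Dectin-1, was at 1619, 1473 and 1774 at ZT4 and 1054, 1043 and 1010 at ZT16. With limma, Clec7a fell by 0.64 ± 0.15 (SE) on the log2 scale at adjusted p = 0.0107. With ZT4 replicate 1 as the single ZT4 library the calls of Clec5a (adjusted p = 0.0852) and Clec7a (adjusted p = 0.169) were lost. Clec7a is in the list of scavenger and lectin receptors (by edgeR 1 lower and 0 higher), whose other called gene was Clec4d at -0.46, lost without ZT4 replicates 1 or 2 or ZT16 replicate 3 (adjusted p = 0.0989 to 0.317). The receptors of dying cells, Timd4 at -0.67 and Cd300lf at -1.04, were the called genes for the uptake of dying cells. Timd4 was lost without ZT4 replicates 2 or 3 or ZT16 replicate 3 (adjusted p = 0.0592 to 0.0888) and Cd300lf without ZT4 replicate 3 or ZT16 replicates 1 or 2 (adjusted p = 0.0887 to 0.134). Fcgr2b, the inhibitory receptor for immunoglobulin G, was higher by 0.48, lost without ZT4 replicates 2 or 3 or ZT16 replicates 1 or 2 (adjusted p = 0.0728 to 0.122). Ptger4, a receptor for prostaglandin E2, was at 1032, 992 and 1074 at ZT4 and 569.7, 581 and 599 at ZT16. This was a log2 difference of -0.82 ± 0.15 (SE) with adjusted p = 0.00187 (limma), and the 3 values within each time lay close together. With Alox15 it made up the 2 called lower of 13 tested prostaglandin and leukotriene genes, against 1.09% of all genes. Cd86, a costimulatory ligand for T cells that was singled out after its values were seen, was at 672, 749 and 732 at ZT4 and 377, 402 and 323 at ZT16. Cd86 fell by 0.97 ± 0.16 (SE) in log2, at adjusted p = 0.000608 by limma.

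Interferon-inducible GTPase genes of the GBP and IRG families were lower at ZT16 than in ZT4 replicates 2 and 3, while ZT4 replicate 1 lay closer to the ZT16 libraries. Iigp1 (ENSMUSG00000054072, chr18:60376027-60392634, plus strand), a GTPase that attacks the vacuoles of intracellular parasites, was at 71.9, 1759 and 5623 at ZT4 and 15.6, 38.8 and 42 at ZT16. On the log2 scale Iigp1 fell by 4.88 ± 0.84 (SE), with adjusted p = 0.000779 (limma), the largest fall of all genes tested. ZT4 replicate 1 was far closer to the ZT16 libraries than to ZT4 replicates 2 and 3. Gbp2b, which carries the ISRE shown above, was at 933, 3702 and 3103 at ZT4 and 542, 854 and 838 at ZT16. Limma gave a log2 fold of -1.59 ± 0.29 (SE) and adjusted p = 0.00108. Gbp5, with 1 ISRE and 2 GAS matches, was at 182, 571 and 2038 at ZT4 and 154, 172 and 143 at ZT16. In log2 units the change was -1.93 ± 0.46 (SE) (adjusted p = 0.0165, limma), lost without ZT4 replicate 3 or ZT16 replicates 1 or 3 (adjusted p = 0.0579 to 0.161). Gbp8, whose model overlaps those of Gbp4 and Gbp9 on the same strand, was at 15.2, 148 and 162 at ZT4 and 7.21, 5.41 and 0.88 at ZT16 and lost its call without ZT4 replicates 2 or 3 or ZT16 replicate 3 (adjusted p = 0.0533 to 0.0714). Reads of GBP genes, which are close copies of each other, may be split between them.

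All GBP and IRG genes together were listed after their values had been seen. Of 17 such genes 12 were tested, 9 were called lower, against 1.09% of all genes, and 0 higher. All 12 had a negative difference, with a median of -1.65. In all 12 the lowest ZT4 value was that of replicate 1, against 32.1% of all genes, and in 7 the 2 times overlapped. Of the 24 genes called in spite of overlapping groups across the whole table, 19 were lower at ZT16, and in 17 of these ZT4 replicate 1 was the lowest ZT4 library. Irf1 (ENSMUSG00000018899, chr11:53770014-53778374, plus strand), a transcription factor induced by interferon gamma, was at 1922, 5642 and 11974 at ZT4 and 1868, 1887 and 2014 at ZT16, so that ZT4 replicate 1 fell among the ZT16 values. It fell by 1.40 ± 0.31 (SE) on the log2 scale (limma, adjusted p = 0.0104), lost without ZT4 replicate 2, ZT4 replicate 3 or ZT16 replicate 1 (adjusted p = 0.0512 to 0.0915). The chemokine genes Cxcl9 and Cxcl10, also induced by interferon gamma, were listed at 0 in ZT4 replicate 1, at 88.8 and 43.4 in replicate 2 and at 104 and 130.5 in replicate 3, and at 8.12 or less at ZT16, and were not called. Ifng itself was at 0 in all 3 ZT4 libraries and at 7.88 or less at ZT16. Summed T cell markers without Cd2 were 188 to 348 at ZT4 and 154 to 217 at ZT16, and their part in the result was not tested.

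Class I presentation, which loads peptides cut by the immunoproteasome onto MHC class I, followed the same split. Of 11 genes tested, 5 were called lower, against 1.09% of all genes, and 0 higher. All 11 had negative differences, against 6292 of all 12113 genes, and their median was -0.43. Psmb8, an immunoproteasome subunit, was at 1717, 3099 and 3582 at ZT4 and 1166, 1575 and 1402 at ZT16. With limma, Psmb8 fell by 0.96 ± 0.17 (SE) on the log2 scale at adjusted p = 0.000857. Tap1, a peptide transporter, was at 1191, 2741 and 3793 at ZT4 and 775, 947 and 1236 at ZT16. This was a log2 difference of -1.26 ± 0.28 (SE) with adjusted p = 0.0086 (limma), lost without ZT4 replicates 2 or 3 or ZT16 replicate 1 (adjusted p = 0.0563 to 0.0789). Tap1 and Psmb9 overlap on opposite strands. Psmb9 (-0.93), Nlrc5 (-1.26) and Psmb10 (-0.88) were lost without ZT4 replicates 2 or 3 or ZT16 replicates 1 or 2, and Psmb10 also without ZT16 replicate 3, at adjusted p from 0.0681 to 0.2015, 0.0947 to 0.282 and 0.0631 to 0.342. The classical class I genes H2-K1 and H2-D1 differed by -0.27 and -0.07 and were not called. The summed signal of the list was 65572 in ZT4 replicate 1, 102087 in replicate 2 and 86765 in replicate 3, against 63818 to 72026 at ZT16.

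With ZT4 replicate 1 as the single ZT4 library, the median difference of the 11 class I genes was 0.04, above 0. The log2 difference of Iigp1 was then -1.26, of Gbp5 -0.22, of Gbp2b -0.35 and of Psmb8 -0.32. ZT4 replicates 2 and 3 were taken out after they were seen to be high for GBP and IRG genes. Smaller differences of interferon-inducible genes in this fit were therefore favoured by the choice of libraries. Of 27 genes stimulated by type I interferon, 0 were called with all libraries (7 were lower at an unadjusted p under 0.05, edgeR called 2 lower and DESeq2 3 lower), and their median went from -0.40 with all libraries to 0.24 with ZT4 replicate 1 alone. Of these 27, 20 had a negative and 7 a positive difference with all libraries, from -1.53 to 1.55.

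The same fit ended many other calls. With a single ZT4 library a call is harder to reach, and no other pair of ZT4 libraries was taken out for comparison. Of the 66 genes named by rule and called with all libraries, 19 were called with ZT4 replicate 1 as the single ZT4 library. They included Per2 (5.42), Tef (2.29), Tsc22d3 (1.79), Hsph1 (2.12), Cirbp (-2.35), Lpl (-2.32), Cxcr4 (2.15) and Ackr3 (-1.98). Another 30 lost the call although their log2 difference was not smaller by more than 1.5 times. Among these were Cry2 (1.03, adjusted p = 0.289), Per1 (1.33, 0.0774), Fkbp5 (1.47, 0.203), Klf9 (0.62, 0.249), Hspa1b (2.30, 0.145), Chordc1 (0.92, 0.0736), Plin2 (-0.84, 0.0874), Ccl6 (0.47, 0.193), Csf1 (-0.92, 0.470), Ptger4 (-0.82, 0.0847), Gdf15 (1.60, 0.100), Rims3 (-2.15, 0.157), Glrp1 (-2.36, 0.238) and Maml2 (-1.41, 0.0981), with limma adjusted p in second place. The last 17 lost the call with a difference smaller by more than 1.5 times or, for Psmb10 (0.05), with the sign turned.

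Of these 17, 15 were genes called lower with all libraries. Beside Iigp1, Gbp2b, Gbp5, Gbp8 (-1.81), Psmb8, Psmb9 (-0.04), Psmb10, Tap1 (-0.30), Nlrc5 (-0.65) and Calhm6 (-0.74) they were Timd4 (-0.23), Alox15 (-0.19), Cxcl16 (-0.44), Cp (-0.38) and Bst1 (-0.29), and the 2 called higher were Ddit4 (0.79) and Fcgr2b (0.26). Outside the rule, Irf1 differed by 0.00 in this fit (adjusted p = 0.9998) and Ahsa1 by 0.40 (adjusted p = 0.684). Cd86 (-0.87, adjusted p = 0.0832), Srsf5 (-0.69, adjusted p = 0.0772) and Maf (0.53, adjusted p = 0.101) lost their calls by limma as well. Of all 293 called genes, 54 were called in this fit, 172 lost the call without such a change in size, and 67 lost it with one, 47 of the 132 lower and 20 of the 161 higher genes.

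**Figure D4:**
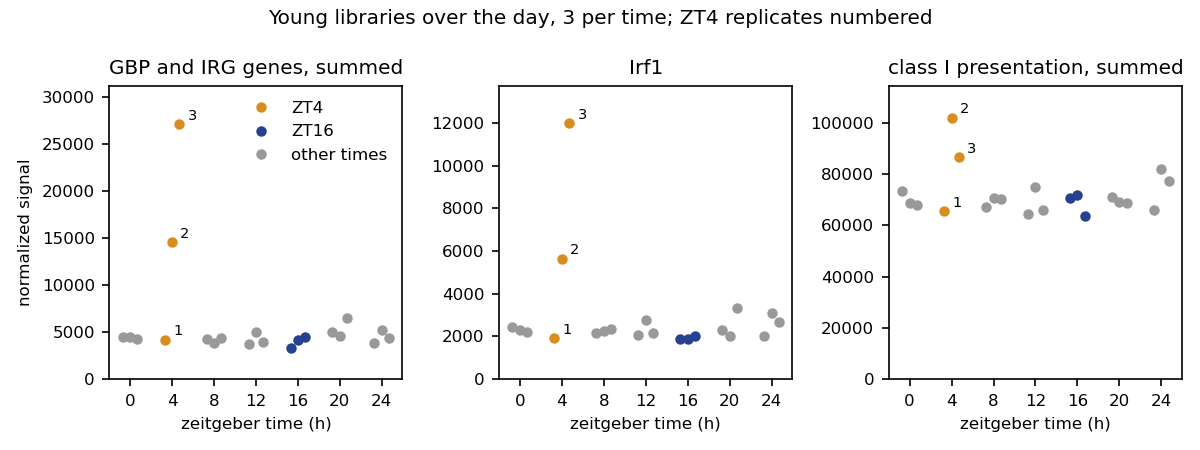
Normalized signal (y axes, starting at 0) of the GBP and IRG genes summed, of Irf1 and of the class I presentation list summed, in each of the 21 young libraries against zeitgeber time in h, with the 3 points of a time set side by side. ZT4 replicates 2 and 3 lie above all other libraries in each panel, and ZT4 replicate 1 among them.

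Among the remaining genes named by size of change, Tppp (ENSMUSG00000021573, chr13:74009407-74035753, plus strand), a protein that promotes tubulin assembly, was at 53.4, 89.8 and 76.1 at ZT4 and 548, 523 and 662 at ZT16. Tppp was higher by 2.99 ± 0.27 (SE) in log2, at adjusted p = 9.78e-09 by limma. Rfx2, a transcription factor of the RFX family, was at 25.0, 37.3 and 25.1 at ZT4 and 107, 114 and 122 at ZT16. On the log2 scale Rfx2 rose by 1.95 ± 0.33 (SE), with adjusted p = 0.000608 (limma). Gdf15, a stress-induced hormone of the TGF beta family, was at 43.5, 51.4 and 45.4 at ZT4 and 161, 114 and 131 at ZT16. Limma gave a log2 fold of 1.50 ± 0.31 (SE) and adjusted p = 0.00482. These 3 genes had non-overlapping groups. Ttc39c rose by 1.57 ± 0.41 (SE), but ZT16 replicate 3 lay near the ZT4 level, and the call was lost without ZT4 replicates 1, 2 or 3 or ZT16 replicates 1 or 2 (adjusted p = 0.0524 to 0.262). Further falls of 1.43 to 2.82 on the log2 scale were called for Glrp1, Rims3, Calhm6, Zc3h6, Pigg and Maml2. The synaptic scaffold gene Rims3 was at 62.1, 83.7 and 69.8 at ZT4 and 7.21, 18.0 and 17.5 at ZT16. In log2 units the change was -2.34 ± 0.43 (SE) (adjusted p = 0.00153, limma). Maml2, a coactivator of Notch, was at 144, 194 and 112 at ZT4 and 46.9, 50.5 and 64.8 at ZT16. It fell by 1.43 ± 0.27 (SE) on the log2 scale (limma, adjusted p = 0.00193). Calhm6 was at 37.0, 121 and 273 at ZT4 and 13.2, 23.4 and 33.2 at ZT16, with ZT4 replicate 1 the lowest at ZT4, and was lost without ZT4 replicates 2 or 3 or ZT16 replicates 1 or 2 (adjusted p = 0.0876 to 0.268). Zc3h6 was lost without ZT4 or ZT16 replicate 3 (adjusted p = 0.101 to 0.141) and Pigg without ZT4 replicates 1, 2 or 3 or ZT16 replicates 1 or 2 (adjusted p = 0.0552 to 0.2275). Singled out after their values were seen, the macrophage transcription factor gene Maf rose by 0.72 ± 0.11 (SE, adjusted p = 0.000256) and the cyclin gene Ccnd1 by 0.80 ± 0.15 (SE, adjusted p = 0.00155).

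Single calls came from 4 further lists, and over all genes tested 2.42% were called. Aim2, the DNA sensor of an inflammasome, differed by -0.60 (1 of 13 tested), and was lost without ZT4 replicate 3 or ZT16 replicate 2 (adjusted p = 0.0577 to 0.086). Pfkl, a phosphofructokinase of glycolysis, was higher by 0.71 (1 of 21), and was lost without ZT4 or ZT16 replicates 1 or 2 (adjusted p = 0.0575 to 0.0761). Cp, the ferroxidase ceruloplasmin, differed by -0.90 (1 of 9 iron genes), lost without any library but ZT4 replicate 1 (adjusted p = 0.0649 to 0.1535). Bst1, an enzyme of NAD metabolism at the cell surface, differed by -0.77 (1 of 12), lost without ZT4 replicate 3 or ZT16 replicate 1 (adjusted p = 0.0659 to 0.128).

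Some lists gave 0 calls by limma. Among 20 DNA replication genes, 19 were negative with a median of -0.32, 1 was lower at an unadjusted p under 0.05, and edgeR and DESeq2 called 0. For 20 lysosomal genes the median was 0.16, with 5 higher and 1 lower at an unadjusted p under 0.05, and with 0 called by edgeR and 3 higher by DESeq2. Cytosolic ribosomal proteins (24 tested) had a median of -0.02 and respiratory chain subunits (25 tested) one of -0.08, with 3 and 0 genes at an unadjusted p under 0.05 and 0 called by edgeR or DESeq2. Of 17 tested immediate early genes, Egr1 (-1.04) and Jund (0.61) were called in opposite directions, where 2.42% of all genes were called. Egr1 was lost without ZT4 or ZT16 replicates 1 or 2 (adjusted p = 0.0731 to 0.156) and Jund without ZT4 replicates 1 or 3 or ZT16 replicates 2 or 3 (adjusted p = 0.0783 to 0.146).

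**Figure D5:**
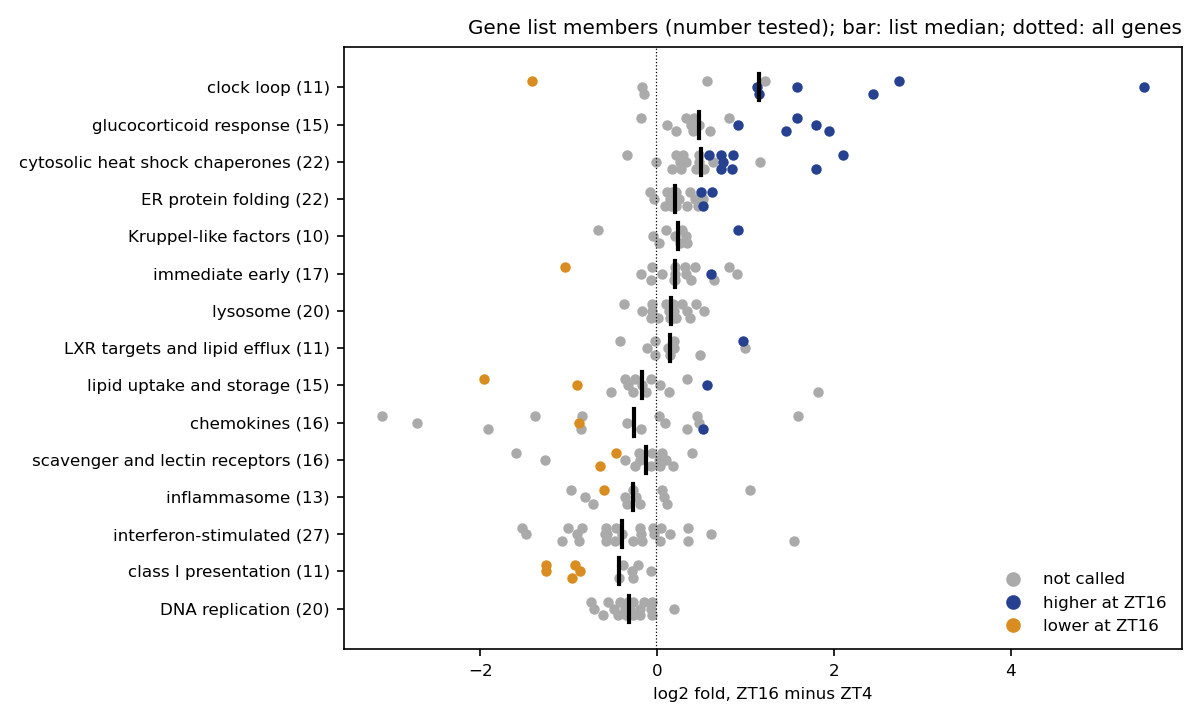
Each point is 1 tested member of a gene list, placed by its log2 fold of ZT16 over ZT4 on the x axis and spread vertically only to separate points. Blue and orange points are called genes, black bars are list medians, from 1.15 for the clock loop to -0.43 for class I presentation, and the dotted line is the median of all genes at -0.02.

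Placed on the whole day, the 2 times were often near the extremes of the called genes. Of the 161 higher genes, 135 had their lowest mean of the 7 times at ZT4, and the highest mean was at ZT16 in 74, at ZT24 in 46 and at ZT12 in 28. Of the 132 lower genes, 115 had their highest mean at ZT4 and 77 their lowest at ZT16. Since the genes were called for a difference between these 2 times, such placements are favoured by the choice.

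In aged mice the same 2 times gave 5 calls among 12016 genes (0.0416%), and 3 of the young calls were among them, Per2, Tef and Hsph1, all higher at ZT16. The others were Nr1d1 and Thra, lower at ZT16 in aged cells, whose gene models overlap on opposite strands. Without adjustment, 1003 genes had a limma p under 0.05 in aged cells, against 1645 in young cells. Aged cells showed the same sign for 229 of the 293 young calls, and the share of same signs over all genes was not counted. The test of the difference between ages, aged minus young in the log2 change from ZT4 to ZT16, called 6 of 12086 genes (0.0496%), Tef, Gbp8, Per2, Dbp, Per3 and Nr1d1. Per2 rose in both ages. Its aged signals, from a separately normalized table, were 62.1, 42.9 and 35.7 at ZT4 and 311, 360.1 and 302 at ZT16, which is a log2 rise of 2.80 ± 0.28 (SE) against 5.50 in young cells. The difference between ages was -2.70 ± 0.46 (SE, adjusted p = 0.00259).

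Tef rose by 1.0 ± 0.18 (SE) in aged cells, from 701, 533 and 579 to 1061, 1275 and 1287, and the difference between ages was -1.44 ± 0.22 (SE, adjusted p = 0.00158). Dbp was at 46.9, 89.8 and 90.5 at ZT4 and at 36.5, 66.9 and 56.0 at ZT16 in aged cells, with overlapping groups where the young groups were apart, and the difference was -3.68 ± 0.63 (SE, adjusted p = 0.00259). Per3 had a difference of -2.06 ± 0.38 (SE, adjusted p = 0.0078), lost without aged ZT16 replicate 1 (adjusted p = 0.0506). Nr1d1 was at 133.9, 95.2 and 100.8 at ZT4 and at 11.8, 10.6 and 0 at ZT16 in aged cells, a fall where the young values were higher at ZT16. Its difference of -5.64 ± 1.08 (SE, adjusted p = 0.0132) was lost without aged ZT16 replicate 3, the library at 0 (adjusted p = 0.118). Gbp8 differed by 6.20 ± 1.06 (SE, adjusted p = 0.00259), with the young ZT4 replicates 2 and 3 high as described above. In aged cells Gbp8 was at 9.66, 24.1 and 15.1 at ZT4 and at 134, 46.7 and 69.7 at ZT16. This aged rise of 2.24 in log2 units was not called (adjusted p = 0.277 by limma). Without young ZT4 replicate 1 the number of genes that differed between ages was 35.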

How the data were processed

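Macrophage RNA of C57BL/6 mice was sequenced from the 3' end of transcripts (Lexogen QuantSeq, per the labels' protocols). The submitters' processing notes name STAR, DESeq2 and mm10. For the counter, the annotation and the versions, nothing is given in the sources used here. Each age has 1 deposited table, in which the authors give a normalized signal for every gene. Values above 0 are whole multiples of the smallest value of a library, so reads were recovered for 100% of values (tolerance 0.001).

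Values of the 21 young libraries were put on the scale log2(signal + 1), those genes were kept whose mean reached 10 (12113 of 47643), and limma-trend (limma 3.58.1, R 4.3.3) was fitted with 7 group means. The contrast was ZT16 minus ZT4, with Benjamini-Hochberg adjustment over all genes kept, and calls were made at an adjusted p under 0.05. The difference between ages was fitted on the reads of 42 libraries with median-of-ratios size factors computed over both ages. Of these fits, the limma fit of the young contrast was tested on simulated data. EdgeR 4.0.16 and DESeq2 1.42.0 on recovered reads, other filters, pseudocounts and scalings and left-out libraries were the alternatives. The fits without young ZT8 replicate 3 and without ZT4 replicates 2 and 3 were chosen after seeing the data.

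The comparison, the gene lists and the named genes were chosen with earlier results of these data known. Named genes are the 15 largest rises and 15 largest falls among called genes with non-overlapping groups, with pseudogenes, antigen receptor segments, Gm and Rik models and models without a symbol passed over. To these come all clock and cold-inducible genes and, from every other list and the test between ages, up to 5 genes by lowest p. The text names a part of them. Positions are from GENCODE M21 (GRCm38, the build of mm10), and sequences from RefSeq (GRCm38.p6), which held a window for 189 of 244 named genes. Reads carry no molecular identifiers stated in the labels, and without a stated strand setting overlapping genes cannot be told apart. All 3 libraries of each group differed by more than sampling noise. Certain genes are not reported here.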

Additional observations from a re-analysis of the deposited data

Results flagged for a closer look

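The change from ZT4 to ZT16 differed between aged and young cells for 6 genes by the limma test of the difference itself. In log2 units, aged minus young, these were Tef at -1.44, Gbp8 at 6.20, Per2 at -2.70, Dbp at -3.68, Per3 at -2.06 and Nr1d1 at -5.64. The 6 were also called by edgeR and by DESeq2. For Tef, Per2, Dbp and Per3 the rise was smaller in aged cells or the sign was opposite, and for Nr1d1 the 2 ages had opposite signs. The value of Gbp8 comes with the high ZT4 replicates 2 and 3 of the young series. In aged cells its log2 rise of 2.24 was not called by limma. The Gbp8 call was kept with any 1 ZT4 or ZT16 library left out. The highest adjusted p was then 0.0268 by limma, without young ZT16 replicate 3. Taking out young ZT4 replicates 2 and 3 together was not tested for the difference between ages.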

How the results depend on the processing

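Leaving out 1 library at a time gave 141 to 401 called genes, 81 to 201 higher, 60 to 200 lower and 55 to 145 changed at least 2-fold. The extremes were the fits without ZT16 replicate 1 (141 called, 81 higher, 60 lower, 55 at least 2-fold) and without ZT4 replicate 1 (401, 201, 200 and 145). The fit without ZT4 replicate 2 gave 188 called and 72 lower. With only the 6 libraries of ZT4 and ZT16 there were 94 called, 55 higher and 39 lower, 53 of them at least 2-fold. Without a filter on level these were 167, 101 and 66, where 22881 genes shared the adjustment. DESeq2 called 482, 252 higher and 230 lower, with 940 adjusted p-values missing, and edgeR 321. At an adjusted p under 0.01 there were 126, 76 higher, 50 lower and 58 at least 2-fold. Without ZT4 replicates 2 and 3, 71, 48, 23 and 46 were found, and Psmb10 turned to 0.049 in log2. Apart from the fewer libraries or more genes in some of these fits, the cause was not tested. The alternatives that left out no library of ZT4 or ZT16 and are not named above gave 261 to 321 calls.

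The replicate number as a block gave 288 calls, 156 higher and 132 lower, 279 of them among the 293. Replicates of the same number in the 2 groups deviated with correlations of 0.065, -0.066 and -0.069, so the number did not pair the libraries. The difference between ages was called for 11 genes by edgeR, 24 by DESeq2 and 5 to 35 with 1 library left out, 16 without aged ZT16 replicate 2 and 35 without young ZT4 replicate 1. The block gave 6.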
